A study of Mus musculus with 8 samples.

Results

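The miR-15, miR-16, miR-322 and miR-503 family comprised 7 of the 611 mouse miRNAs on the array, namely mmu-miR-15a, mmu-miR-15b, mmu-miR-16, mmu-miR-195, mmu-miR-322, mmu-miR-497 and mmu-miR-503, which were matched by name and are written below without the species prefix. The tissues were micro-dissected under a fluorescence microscope from mammary glands of 5-week-old female FVB/n mice that carried a beta actin-GFP reporter, in which GFP runs under a promoter active in most cell types. Terminal end buds (TEBs), the growing tips of the pubertal ductal tree, were measured on 3 arrays, mature ducts behind them on 2 and stroma taken away from the ducts on 3. All groups shared the reporter, the strain and the age. The sources used here do not state whether each array held RNA of 1 mouse, so the p-values below measure the spread between arrays, which may be partly technical. The comparisons ask how the family differed between the growing tips, the ducts that they leave behind and the tissue around them. Each comparison shares its arrays with the other two, and all arrays entered a single fit.

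A miRNA is a short RNA that guides an Argonaute protein to messenger RNAs, mainly by pairing of its seed, bases 2 to 8 from the 5′ end, and lowers their translation and stability. miRNAs of the miR-15 and miR-16 family are known to repress genes for cyclin D and cyclin E, the kinases they activate and the survival factor Bcl2, and so to slow entry into the cell cycle. miR-322, called miR-424 in human, and miR-503 are made from one transcript and have been linked to the regression of the mammary epithelium after lactation.

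The mature sequences are shown because the family is defined by its seed and because some members differ by few bases. They come from RefSeq with the build GRCm38.p6, in which 7 of 7 members were matched, are written 5′ to 3′ in lower case, and have the seed in capitals.
miR-15a: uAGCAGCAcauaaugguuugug
miR-15b: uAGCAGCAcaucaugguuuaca
miR-16: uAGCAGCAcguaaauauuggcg
miR-195: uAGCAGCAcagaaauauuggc
miR-497: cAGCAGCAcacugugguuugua
miR-322: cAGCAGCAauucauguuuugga
miR-503: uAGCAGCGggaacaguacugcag

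The seed AGCAGCA was shared by 6 members and by 10 of the 1679 mature mouse miRNAs of RefSeq (0.596%). The other 4 carriers, miR-195b, miR-6342, miR-6353 and miR-6419, are not on the array by name. miR-503 had the seed AGCAGCG, found in no other mature miRNA of the RefSeq table (0.0596%). Counted from the 5′ end, its seed differed from that of miR-15a by the substitution A8G. miR-16 and miR-195 differed at 2 of 21 bases, G10A and U11G, and miR-15a and miR-15b at 4 of 22. Such close sequences can share hybridisation signal, and how much they did on this array was not tested.

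The members lie in 4 pairs in the genome. Counted between mature strands, Mir15a on chromosome 14 is 117 bases from Mir16-1, within the lncRNA gene Dleu2. Mir15b on chromosome 3 is 121 bases from Mir16-2, within the protein-coding gene Smc4, so that mature miR-16 has 2 sources that an array cannot separate. Mir497 and Mir195a on chromosome 11 are 310 bases apart. Mir322 at chrX:53054255-53054349 and Mir503 at chrX:53053984-53054054, both on the minus strand, lie within the lncRNA gene C430049B03Rik, with 256 bases between their mature strands. Their hairpins are shown, with both mature arms in capitals, because one transcript gives a miRNA found on all arrays, miR-322, and one found on the TEB arrays and a single duct array, miR-503.
Mir322: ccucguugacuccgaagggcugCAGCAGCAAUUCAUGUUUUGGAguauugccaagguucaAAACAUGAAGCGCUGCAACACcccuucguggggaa
Mir503: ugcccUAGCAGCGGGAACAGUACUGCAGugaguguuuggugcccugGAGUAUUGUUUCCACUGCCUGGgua

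Between 142 and 169 miRNAs were detected per array, and the summed signal ran from 54238.6 to 88828.3 units, highest on the duct arrays. Signals are the scanner software's background-subtracted intensity of each miRNA, multiplied by a factor per array that made the arrays equal in the 75th percentile of 108 miRNAs, those with a detected signal on each of the 8 arrays. The choice of this scaling moves every comparison. The median of the 167 tested miRNAs was -0.277 on the log2 scale for TEBs against stroma, -0.0892 for ducts against stroma and -0.104 for TEBs against ducts, and other scalings moved these medians by up to 0.59. The share of called miRNAs that were higher in the first tissue was 31.5% for TEBs against stroma and 40.6% to 62.1% under the other 5 scalings. It was 44.4% for ducts against stroma and 47.2% to 92.9% under the others, and 46.3% for TEBs against ducts and 16% to 80% under the others. Differences of TEBs and stroma are therefore also given relative to the median of the tested miRNAs. For the 4 scalings that multiply each array by a single factor this relative value is the same by construction, apart from signals at the floor, so that its range comes from quantile normalization and the value table.

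The tissue labels were checked against miRNAs known to mark cell types. The 6 epithelial markers of the miR-200 group and miR-205 were found on all duct and TEB arrays and on no stroma array. Their summed scaled signal, with signals under the floor of 1 unit counted as 1, was at most 10.5 in stroma, which is not above background, 2077 and 2316 in ducts and 1948 to 2057 in TEBs. The 3 fat pad markers were highest in stroma, at 1313 to 1653 against 459 to 747 in the epithelial fractions. The fibroblast and smooth muscle list went the other way, at 2468 to 2965 in stroma, 3427 and 3513 in ducts and 3161 to 3779.9 in TEBs, with 4 of its 5 miRNAs detected on all arrays and miR-145 on none. Red cell markers were 1988 to 3577 in stroma, 2591 and 3276 in ducts and 1370.4 to 1902 in TEBs. Endothelial markers were 2766 to 3864, 1928 and 2062, and 1316 to 1651 in the same order, leukocyte markers 564 to 679, 362 and 385, and 297 to 449.5, and skeletal muscle markers 33.2 to 61.2, 58.1 and 179.6, and 18.8 to 90.5. The stroma pieces thus held little epithelial miRNA, while miRNAs of the fibroblast and smooth muscle, fat pad and red cell lists were also found in the epithelial pieces. Which cells these came from was not tested.

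Among the 7 members, 4 passed the test between TEBs and stroma, 3 higher (miR-15b, miR-322 and miR-503) and 1 lower (miR-15a), where 64.7% of the tested miRNAs passed, 20.4% higher and 44.3% lower. Arrays did not overlap for 4 members, 3 higher and 1 lower, against 72.5% of the tested miRNAs, 24% higher and 48.5% lower. Between ducts and stroma 1 member passed, miR-322, which was higher, against 21.6% of the tested miRNAs, 9.58% higher and 12% lower. Arrays did not overlap for 3 members, 2 higher and 1 lower, against 44.9%, 22.2% higher and 22.8% lower. Between TEBs and ducts 1 member passed, miR-503, which was higher, against 24.6% of the tested miRNAs, 11.4% higher and 13.2% lower. Arrays did not overlap for 2 members, both higher, against 65.3%, 22.2% higher and 43.1% lower. The member medians of the log2 differences were 0.157, 0.0713 and 0.0041, beside the medians of all tested miRNAs given above. miR-503 entered the test only through the TEBs, the tissue in which it was highest, so its place in these counts is a description and supports nothing. Under the other 5 scalings 3 to 5 members were higher and 0 lower in TEBs than in stroma. For ducts against stroma 0 to 3 were higher and 0 lower, and for TEBs against ducts 1 to 2 higher and 0 lower. Of all 167 tested miRNAs, 38 to 59 were higher and 28 to 60 lower in TEBs than in stroma under these scalings. For ducts against stroma 11 to 52 were higher and 4 to 19 lower, and for TEBs against ducts 12 to 32 and 6 to 63. The counts of all tested miRNAs thus moved with the scaling as well. Under the scaling used for the tests above, the shares of members called lie near or under those of all tested miRNAs. The exception is 3 of 7 members higher in TEBs than in stroma, a count that includes miR-503. The 4 calls between TEBs and stroma became 2 without stroma replicate 1 or TEB replicate 1, the call between ducts and stroma became 2 without duct replicate 1, and the call between TEBs and ducts became 0 without TEB replicate 1 or 2.

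miR-322 was raised in ducts and in TEBs relative to stroma and did not pass the test between TEBs and ducts. Its scaled signal was 671, 654 and 675 on the stroma arrays, 1073 and 1039 on the duct arrays and 964, 1079.7 and 1061 on the TEB arrays. Every duct and TEB array lay above every stroma array, and the ducts lay within the TEB range. TEBs exceeded stroma 1.55-fold (log2 difference 0.63 ± 0.08 SE, 95% interval 0.44 to 0.83, adjusted p = 0.000956 by limma with Benjamini-Hochberg adjustment). Ducts exceeded stroma 1.58-fold (log2 difference 0.66 ± 0.09 SE, 95% interval 0.45 to 0.88, adjusted p = 0.00278 by limma). Between TEBs and ducts the log2 difference was -0.03, with an interval of -0.25 to 0.19 and an adjusted p of 0.826. Since these are pieces of tissue, more cells of a type and more RNA per cell cannot be told apart.

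The miR-322 difference lay above the median shift of the tested miRNAs. Counted from the highest, it ranked 35 of 167 for TEBs against stroma and 21 of 167 for ducts against stroma. Relative to the median of the tested miRNAs it was 0.73 to 0.91 for TEBs against stroma and 0.75 to 0.84 for ducts against stroma over the 6 scalings. The call of ducts against stroma was lost with the 75th percentile of all mouse miRNAs (log2 difference 0.50, adjusted p = 0.398). Within the first row of the slide, TEBs exceeded stroma by 0.60 and ducts by 0.68 on the log2 scale, and within the second row by 0.68 and 0.65. The miRNAs with the profile most like that of miR-322, by the root mean square difference of mean-centred log2 signals over the 8 arrays among 107 miRNAs, were miR-199a-5p (0.097), miR-214 (0.158) and miR-199a-3p (0.161). All 3 belong to the fibroblast and smooth muscle list, and 3 of the 4 tested miRNAs of that list were called higher in TEBs than in stroma and 2 in ducts. The fourth, miR-143, was called lower in TEBs than in stroma (-0.40) and than in ducts (-0.61). Their part in the miR-322 difference was not tested.

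**Figure D1:**
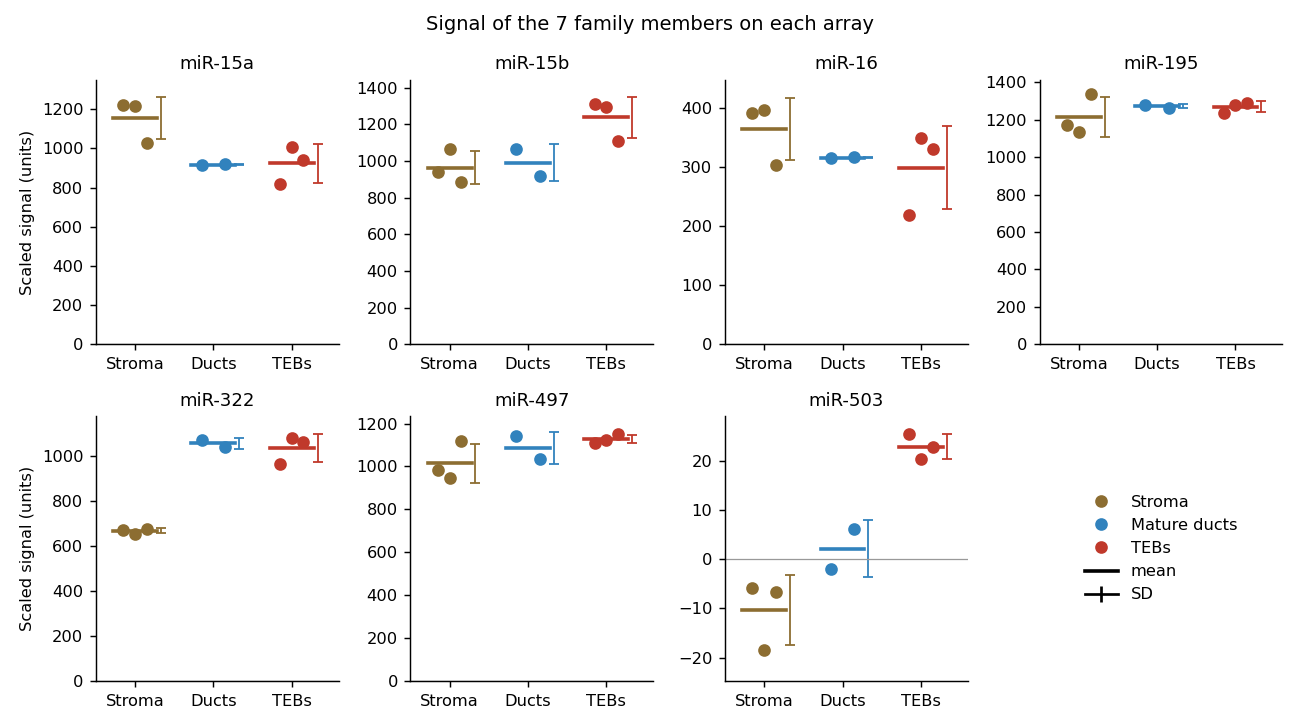
Scaled signal of each of the 7 members on each array, in scaled intensity units, with 1 panel per member, points for arrays grouped as stroma, mature ducts and TEBs, lines for the mean and bars for the SD; vertical axes differ between panels. miR-322 lies between 654 and 675 in stroma and between 964 and 1079.7 in the other tissues, and miR-503 lies between -18.4 and 6.23 outside the TEBs and between 20.2 and 25.4 in them.

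miR-503, the partner of miR-322 with the different seed, was detected on all 3 TEB arrays, on 1 of the 2 duct arrays and on no stroma array. Its unscaled signal was 25.2, 21.4 and 21.9 units on the TEB arrays, with scanner errors of 4.61, 5.12 and 5.67 units. It was -2.59 and 7.77 units on the duct arrays, with errors of 10.5 and 6.40 units, and -5.75, -15.3 and -4.91 units in stroma. Each TEB signal lay above every duct and stroma signal, and the signal of duct replicate 2 that was flagged as detected was little larger than its error. After scaling, TEBs were 3.05-fold above a stand-in for stroma, the lowest signal among the detected miRNAs of each stroma array. This is not a strict lower bound, since an undetected miRNA can lie above the stand-in. miR-351, from the same locus, was not flagged as detected on the stroma arrays at 12.6 to 29.9 scaled units. The adjusted p was 0.0011 by limma, but miR-503 was among the tested miRNAs only because it was detected on every TEB array, so this p comes from a member that the filter had chosen for a high TEB signal.

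No fold of miR-503 is given against ducts, where 1 of 2 arrays detected it, or between ducts and stroma, where the duct mean lay under the stand-in used for stroma. The limma call of TEBs against ducts (adjusted p = 0.0201) used a floored value for duct replicate 1 and the same filter. Leaving out duct replicate 1 or 2 left 1 duct array, with log2 differences of 1.87 and 4.51. The call was lost under 7 of 22 alternatives. Among them were 16 added in place of the floor (adjusted p = 0.404), a test of all miRNAs (adjusted p = 0.0873) and a fit of only these tissues (adjusted p = 0.0671). It was also lost without TEB replicate 1 (adjusted p = 0.0515) or TEB replicate 2 (adjusted p = 0.0623). The call of TEBs against stroma was lost with normexp background correction and an added offset of 50 units (log2 difference 0.17, adjusted p = 0.11). That offset is larger than every miR-503 signal. Ducts and stroma did not pass the test (adjusted p = 0.23). Leaving out a duct array leaves 1 duct signal that is assumed to vary like the other tissues, and moved that p from 0.000122 without duct replicate 1 to 1 without duct replicate 2.

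**Figure D2:**
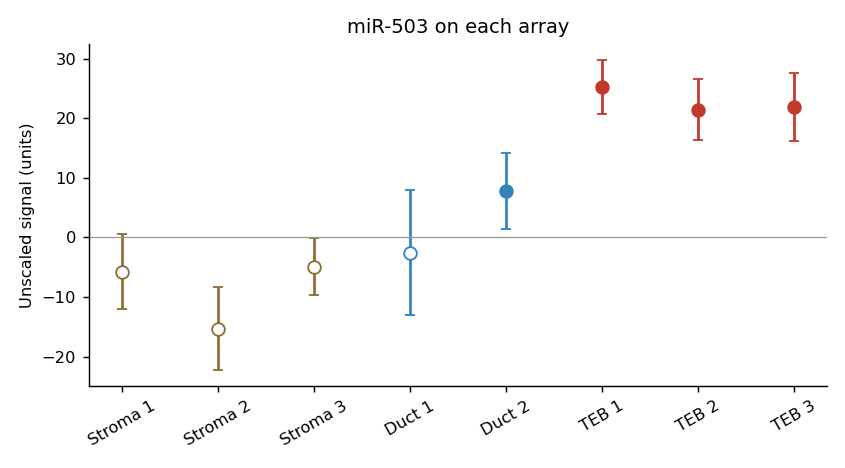
Unscaled signal of miR-503 on each of the 8 arrays in intensity units, with the scanner error as bars, and filled points where the miRNA was flagged as detected. The 3 TEB arrays lie between 21.4 and 25.2 units, above all other arrays.

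On the same arrays the paired member miR-322 was detected throughout. The ratio of miR-322 to miR-503 within an array is not given, because miR-503 lay below the floor on all stroma arrays and on duct replicate 1. Other miRNAs of the locus were weak. Of 7 neighbours on the array, 5 were detected on no array, miR-351 was detected on duct replicate 1 only, and miR-542-5p was detected on 5 of 8 arrays. The scaled miR-542-5p signal was 5.02 to 11.6 in TEBs, 0.030 and 9.64 in ducts and -0.82 to 3.18 in stroma. These signals were at or near the background, and miR-542-5p was tested only through the TEBs and passed no test. The scaled miR-351 signal was lowest in TEBs, at 1.28 to 4.90, against 12.6 to 29.9 in stroma and 35.9 and 12.6 in ducts. All its TEB arrays lay below all others, and it did not enter the test.

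miR-15b, made with miR-16 from the Smc4 locus, was higher in TEBs than in stroma. Its scaled signal was 941, 1063 and 885 in stroma, 1062 and 918 in ducts and 1309, 1295 and 1107 in TEBs. Every TEB array lay above every other array, and ducts and stroma overlapped. TEBs exceeded stroma 1.28-fold (log2 difference 0.36 ± 0.12 SE, 95% interval 0.07 to 0.65, adjusted p = 0.0353 by limma). TEBs exceeded ducts by 0.32 with an interval of -0.00 to 0.65 and an adjusted p of 0.102, so the call was not made although the arrays did not overlap. With quantile normalization it was made (0.46, adjusted p = 0.0486), and without scaling the sign turned (-0.043, adjusted p = 0.871). Relative to the median of the tested miRNAs the difference was 0.52 to 0.64 for TEBs against stroma and 0.43 to 0.44 for TEBs against ducts over the 6 scalings. The call of TEBs against stroma was lost under 8 of 23 alternatives, among them a fit with a term for slide row (0.32, adjusted p = 0.0725) and leaving out stroma replicate 1 (0.35), stroma replicate 3 (0.30), TEB replicate 1 (0.32) or TEB replicate 2 (0.33). Within the 2 slide rows the difference was 0.47 and 0.19.

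miR-15a, made with miR-16 from the Dleu2 locus, had the opposite order. Its scaled signal was 1222, 1215 and 1029.6 in stroma, 915 and 919 in ducts and 817, 1009.5 and 943 in TEBs. All duct and TEB arrays lay below all stroma arrays. The log2 difference of TEBs and stroma was -0.32 ± 0.12 SE (95% interval -0.61 to -0.04, adjusted p = 0.0464 by limma with Benjamini-Hochberg adjustment). For ducts and stroma it was -0.33 (adjusted p = 0.127) and for TEBs and ducts 0.00 (adjusted p = 0.977). The call of TEBs against stroma held under 6 of 23 alternatives and was lost under 15, among them leaving out stroma replicate 1 or 2, either duct replicate, or TEB replicate 1 or 3 (-0.34 to -0.24), and the direction turned with the 75th percentile of all mouse miRNAs (0.068) and with scaling to the median of those 108 miRNAs (0.16). Relative to the median of the tested miRNAs it was -0.27 to -0.05 over the 6 scalings. Within the slide rows it was -0.43 and -0.25.

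**Figure D3:**
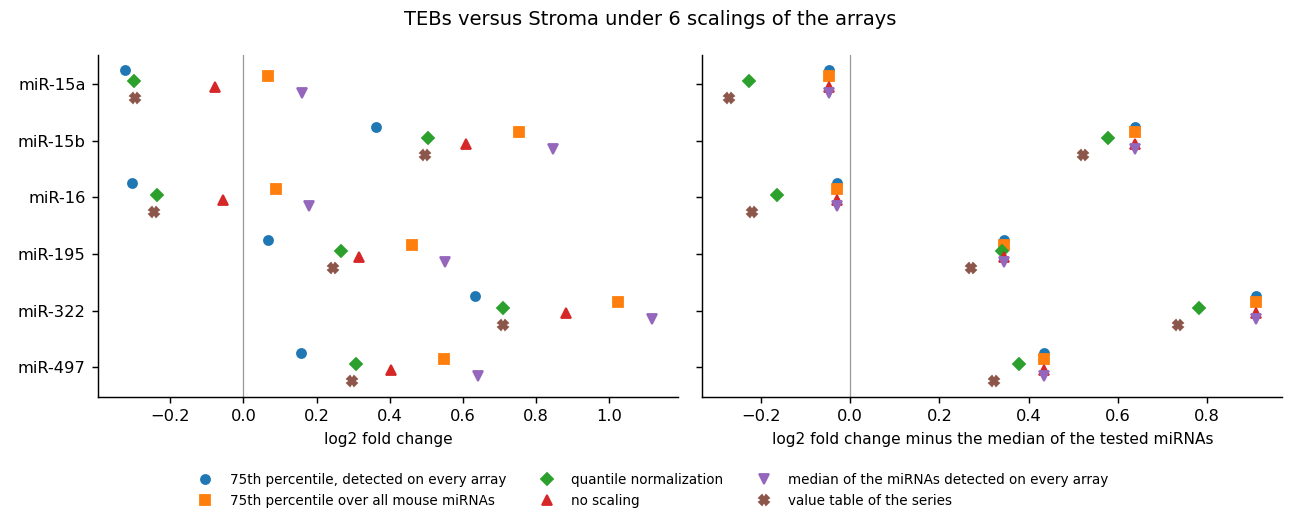
Log2 fold change of TEBs against stroma for the 6 members detected on all arrays, under 6 scalings shown by marker, as fitted on the left and after subtracting the median of the tested miRNAs on the right. As fitted, miR-15a and miR-16 lie on both sides of 0; on the right miR-322 lies between 0.73 and 0.91 and miR-15b between 0.52 and 0.64.

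The difference of miR-15b and miR-15a within each array was added after their opposite orders had been seen, so it is a description with no test. On the log2 scale it was -0.38, -0.19 and -0.22 in stroma, 0.22 and -0.00 in ducts and 0.68, 0.36 and 0.23 in TEBs. All TEB arrays lay above all stroma arrays, and the duct arrays lay between them. The scaling cancels in this difference.

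**Figure D4:**
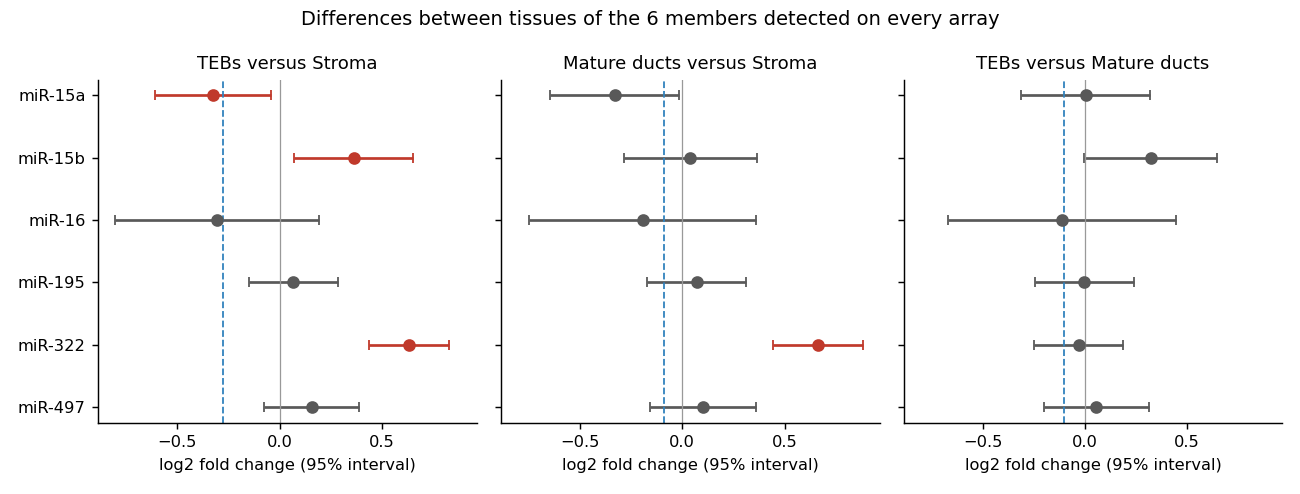
Log2 difference between tissues of the 6 members detected on all arrays, with 1 panel for each comparison, points for the limma estimate, bars for the 95% interval, red for an adjusted p under 0.05 and a dashed line at the median of the 167 tested miRNAs. miR-322 lies at 0.63 and 0.66 against stroma and at -0.03 between TEBs and ducts.

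miR-16, whose mature strand comes from both of these loci, did not pass any test. Its scaled signal was 391, 397 and 303 in stroma, 315 and 316 in ducts and 218, 348 and 329 in TEBs, and all tissues overlapped. TEBs differed from stroma by -0.30 (95% interval -0.80 to 0.19, adjusted p = 0.235 by limma), which turned to 0.088 and 0.18 under the scalings that turned miR-15a and was -0.22 to -0.03 relative to the median of the tested miRNAs. The interval reached further below 0 than the miR-322 difference lay above it, so the test leaves a fall of that size undecided. The profile of miR-16 was close to miR-148a (0.106), miR-199b* (0.106) and miR-15a (0.129). miR-15a was nearest to let-7d (0.084). Red cells are known to carry much miR-16, and the red cell list fell in TEBs with both of its miRNAs called lower than in stroma. Its part in the miR-15a and miR-16 values was not tested.

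miR-195 and miR-497, made from one locus, passed no test between tissues. The scaled signal of miR-195 was 1172, 1136 and 1335 in stroma, 1280.1 and 1265 in ducts and 1237, 1280.2 and 1291 in TEBs. That of miR-497 was 982, 946 and 1118 in stroma, 1141 and 1033 in ducts and 1111, 1123 and 1151 in TEBs. Tissues overlapped in all comparisons of both. TEBs differed from stroma by 0.07 in miR-195 (95% interval -0.15 to 0.28, adjusted p = 0.532) and by 0.16 in miR-497 (interval -0.07 to 0.39, adjusted p = 0.19 by limma). Relative to the median of the tested miRNAs these were 0.27 to 0.34 and 0.32 to 0.43. Between TEBs and stroma miR-497 passed the test under 3 of 23 alternatives and miR-195 under 1, and between ducts and stroma they passed under 2 and 1, all of them scalings. Each was the other's nearest profile among 107 miRNAs, at a root mean square difference of 0.051.

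The log2 difference of miR-195 and miR-497 within an array was 0.255, 0.264 and 0.256 in stroma, 0.167 and 0.292 in ducts and 0.155, 0.189 and 0.166 in TEBs. TEBs differed from stroma by -0.089 without overlap (p = 0.1, exact two-sided permutation test), which is the smallest p that 3 arrays against 3 allow, while each of these signals had a scanner error of 8.27% of its size or more. The difference between miR-322 and miR-497, added after the values had been seen, was -0.55, -0.53 and -0.73 in stroma, -0.088 and 0.008 in ducts and -0.21, -0.057 and -0.12 in TEBs. All stroma arrays lay below all others. This too is a description with no test.

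Related miRNAs were counted as whole lists. The passenger strands of the members, 5 of 7 of which are on the array, were detected on no array. Of 17 other miRNAs reported to restrain the cell cycle, such as the let-7 and miR-34 groups, 14 were tested. None was higher and 6 were lower in TEBs than in stroma, where 20.4% of all tested miRNAs were higher and 44.3% lower. None was higher and 2 were lower in ducts than in stroma, against 9.58% and 12% of all tested miRNAs. None passed between TEBs and ducts, against 11.4% higher and 13.2% lower. The list median for TEBs against stroma was -0.111, above the -0.277 of all tested miRNAs. The counts changed direction with the scaling, to 5 higher and 0 lower in TEBs against stroma with the median of the detected miRNAs. With that scaling 59 of all 167 tested miRNAs were higher and 36 lower. The let-7a difference of TEBs and stroma was -0.28 (adjusted p = 0.0335 by limma), let-7b was -0.16 (adjusted p = 0.0866) and let-7c was -0.02 (adjusted p = 0.836). Of 6 guide strands of the miR-17-92 cluster, known to promote proliferation, 5 were tested. All 5 were higher in TEBs than in stroma, 2 in ducts than in stroma and 4 in TEBs than in ducts. Of all tested miRNAs 20.4%, 9.58% and 11.4% were higher in the same order. Under the other 5 scalings the counts of these guide strands were 5, 1 to 5 and 2 to 5, with none lower. Of these 5, 3 were detected on all arrays. miR-19b was 2.11-fold higher in TEBs than in stroma (adjusted p = 0.000299 by limma). miR-19a was detected on 2 of 3 stroma arrays and on all others. miR-18a was found on all duct and TEB arrays and on no stroma array. miR-19a and miR-18a thus entered the test only through ducts and TEBs, so their place in the counts against stroma is a description and supports nothing.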

How the data were processed

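Per the labels, 100 ng of total RNA per sample was labelled with Cy3-pCp and read in a single colour on an Agilent mouse miRNA array with Feature Extraction 9.5.3. The authors deposited an intensity for each miRNA, which is background-subtracted, summed over its probes and not normalized between arrays, with its error and a detection flag. They also deposited a value table whose scale is not given in the sources used here. Judged by its values, it holds log2 signals (r with log2 scanner signals 0.996 to 0.9994), which the authors may have quantile-normalized and floored. The column median was 0.169 on duct replicate 1 and 1.57 to 1.69 on the other arrays, so that reading is uncertain. The value table served as an alternative.

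Each array was scaled by its 75th percentile over 108 miRNAs, those with a detected signal on each of the 8 arrays (factors 0.7499 to 1.36). Scaled signals were floored at 1 and logged. For 167 miRNAs, each detected throughout 1 tissue or more, the functions lmFit, contrasts.fit and eBayes of limma 3.58.1 (R 4.3.3) were applied to all arrays together. P-values were adjusted by Benjamini-Hochberg over the 167 miRNAs within each comparison, at 0.05. The procedure was tested on simulated data. Differences between members of one array were tested by exact permutation over arrays. Figures were drawn with matplotlib 3.10.9.

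The members, related lists and tests were chosen with earlier results of these data known. All 7 members are named, and up to 3 of each related list in list order. The arrays share 1 slide and lay in 2 rows, each with all tissues. Alternatives were other scalings, offsets, filters and fits, and leaving out each array. The number of arrays limits the precision. Cell line and tumour experiments of the study were not analysed here.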

Additional observations from a re-analysis of the deposited data

How the results depend on the processing

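miR-322 in TEBs against stroma kept its direction and call under 22 of 23 alternatives (log2 0.58 to 1.12), the exception being a minimum change of 2-fold, and miR-503 in TEBs against stroma, which the detection filter admits only through the TEBs, kept its call under 21 of 22. The cause of the changes below was not tested.

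Members called between TEBs and stroma numbered 4. They were 2 without a detection filter, with the slide row as a covariate and with the methods' t-test after Benjamini-Hochberg, and 1 with the 2-fold minimum, and 2 to 3 leaving out 1 array. Between ducts and stroma 1 was called, against 0 with the 75th percentile of all miRNAs and with the 2-fold minimum, 3 without scaling, 2 with the median of detected miRNAs and with the value table, and 1 to 2 leaving out 1 array. Between TEBs and ducts 1 was called, against 2 with quantile normalization and the value table, and 0 with 16 added, without a detection filter, with miRNAs detected on every array, with the replicate block, with only the compared tissues and with the methods' t-test after Benjamini-Hochberg, and 0 to 1 leaving out 1 array. The methods' t-test unadjusted at 0.05 called 3, 1 and 1 members. All miRNAs called between TEBs and stroma numbered 108, against 66 with the 75th percentile of all miRNAs and 60 with the 2-fold minimum. Between ducts and stroma 36 became 19, 56 without scaling, 66 with normexp, 17 with the 2-fold minimum and 22 to 40 leaving out 1 array. Between TEBs and ducts 41 became 75 without scaling, 18 without a filter, 16 with the replicate block, 23 with the 2-fold minimum, 12 with the methods' t-test after Benjamini-Hochberg and 5 to 45 leaving out 1 array.

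Whether the replicate numbers pair the arrays could not be decided. Deviations of same-numbered arrays from their tissue means had a mean correlation of -0.104 over 7 pairs between tissues (range -0.510 to 0.362). For arrays with different numbers it was 0.0518 over 14 pairs (range -0.497 to 0.510). Deviations within a tissue cancel by construction, so these correlations depend on each other and leave pairing open. With the number as a block, the call of miR-503 in TEBs against ducts was lost (adjusted p = 0.0713).

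Small log2 differences turned sign. With the 75th percentile of all miRNAs, TEBs against stroma was 0.068 in miR-15a and 0.088 in miR-16, ducts against stroma was -0.12 in miR-15b, -0.087 in miR-195 and -0.058 in miR-497, and TEBs against ducts was 0.44 in miR-16, 0.55 in miR-195 and 0.52 in miR-322. With the median of detected miRNAs the values were 0.16 in miR-15a and 0.18 in miR-16 for TEBs against stroma, 0.013 and 0.15 for ducts against stroma, and 0.031 in miR-16, 0.14 in miR-195 and 0.11 in miR-322 for TEBs against ducts. Without scaling, ducts against stroma was 0.28 in miR-15a and 0.42 in miR-16, and TEBs against ducts was -0.36 in miR-15a, -0.043 in miR-15b and -0.31 in miR-497. With quantile normalization and with the value table, TEBs against ducts was 0.018 and 0.027 in miR-16 and 0.064 and 0.014 in miR-195. The block gave -0.028 in miR-15b for ducts against stroma, the slide row -2.86e-05 in miR-15a and 0.0023 in miR-195 for TEBs against ducts, and normexp -0.19 in miR-503 for ducts against stroma. Leaving out 1 array gave, for TEBs against ducts, -0.063 to 0.089 in miR-15a, -0.24 to 0.10 in miR-16, -0.016 to 0.015 in miR-195, -0.062 to 0.020 in miR-322 and -0.016 to 0.13 in miR-497, and for ducts against stroma -0.065 to 0.15 in miR-15b.

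The within-array log2 difference of miR-322 and miR-503 is set by the floor where miR-503 is below it and is no estimate. It was -3.87 for TEBs against stroma and -3.22 for TEBs against ducts, became -2.47 for TEBs against stroma and -1.16 for TEBs against ducts with 16 added, and leaving out 1 array it was -4.56 to -1.87 for TEBs against ducts and -2 to 0.69 for ducts against stroma. That of miR-195 and miR-497 was -0.092 to 0.033 for ducts against stroma and -0.12 to 0.0032 for TEBs against ducts. Signals of miR-503 near the background limit its comparisons.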
